A study of Mus musculus with 52 samples.

Results

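The 2 ATAC-seq libraries from anterior pituitary endothelial cells (ECs) with stabilized beta-catenin shared 528 accessible regions that were called in none of the other 10 libraries of the series. They are 0.791% of the 66740 regions formed by merging the peaks of all 12 ATAC-seq libraries, and 1.5% of the 35147 regions called in both stabilized anterior pituitary libraries. The members were chosen by measured values: a peak had to exceed a fold enrichment of 2 and a −log10 q of 2 in both replicates, with at least 1 bp of overlap, and no peak past the same thresholds could overlap the region in any other library. Accessibility in the 12 libraries is therefore given as a description, with no test. Place, sequence and RNA played no part in the choice.

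The other 10 libraries came from wild type (WT) anterior pituitary, and from WT and stabilized posterior pituitary and cerebellum, with 2 biological replicates per group. WT mice carried Tie2-GFP, which marks ECs and allows them to be sorted, and stabilized mice carried Tie2-GFP, Pdgfb-CreER and the BcatEx3fl allele of Ctnnb1, and received 100 µg of 4-hydroxytamoxifen (4HT) at postnatal day 10. The Pdgfb promoter restricts CreER largely to ECs, and deletion of exon 3 removes the residues through which beta-catenin is marked for degradation. No Cre line or 4HT is stated for WT mice, so that the effects of Cre, 4HT and beta-catenin cannot be told apart. All mice were labelled adult males, each pituitary replicate pooled 20 to 30 glands from mice of postnatal day 30 to 90, and each ATAC-seq library started from about 50000 sorted GFP-positive cells. RNA-seq of GFP-positive and GFP-negative cells of the same tissues and genotypes gave 12157485 to 37529274 counts per library. Replicate 2 of the stabilized anterior pituitary GFP-positive RNA libraries is labelled anterior by its title and source and posterior by its tissue entry, and was kept in the anterior group by title.

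Beta-catenin is the intracellular effector of canonical Wnt signaling. Once stabilized, it enters the nucleus and binds transcription factors of the TCF/LEF family, which sit on short DNA motifs in promoters and distant enhancers. In brain ECs this pathway maintains the blood-brain barrier (BBB), whereas ECs of the anterior pituitary are fenestrated and permeable to hormones. ATAC-seq marks open chromatin, where a transposase can insert into DNA, so that enhancers and promoters in use appear as peaks.

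A group of 3 of the 528 regions held at least 3 TCF/LEF motifs within 100 bp of the summit, and they are shown as the members with the most TCF/LEF words. They were singled out after the motif counts were seen, and all sequences are from the RefSeq genome, GRCm38. The capitals mark TTCAAAG or ATCAAAG on either strand, the searched TCF/LEF words. The first lies directly upstream of Dkk4, a secreted Wnt inhibitor, the second in an intron of Rsu1, which encodes a Ras suppressor found at integrin adhesions, and the third in an intron of Itpk1, an inositol phosphate kinase.
Dkk4 promoter region (GRCm38 chr8:22623750-22623950, plus strand): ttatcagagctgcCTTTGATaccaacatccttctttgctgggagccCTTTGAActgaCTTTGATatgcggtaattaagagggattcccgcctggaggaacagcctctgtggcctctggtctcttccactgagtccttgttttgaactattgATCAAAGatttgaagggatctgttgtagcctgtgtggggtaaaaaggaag
Rsu1 intron region (GRCm38 chr2:13265013-13265213, plus strand): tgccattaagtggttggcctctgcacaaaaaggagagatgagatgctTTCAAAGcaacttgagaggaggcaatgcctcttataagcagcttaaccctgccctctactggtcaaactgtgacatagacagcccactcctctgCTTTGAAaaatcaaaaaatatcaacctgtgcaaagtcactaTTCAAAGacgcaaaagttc
Itpk1 intron region (GRCm38 chr12:102652497-102652697, plus strand): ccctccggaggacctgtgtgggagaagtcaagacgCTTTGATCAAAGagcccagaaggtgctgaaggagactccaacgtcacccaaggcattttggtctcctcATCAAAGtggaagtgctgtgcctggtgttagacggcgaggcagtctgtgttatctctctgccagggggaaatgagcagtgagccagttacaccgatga

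The Dkk4 window held 4 such words and the Rsu1 window held 3. The Itpk1 window also held 3, of which one pair overlapped on opposite strands and shared the bases at positions 41 to 42, counted from the first base printed. Fold enrichment was 3.41 and 3.9 in replicates 1 and 2 at the Dkk4 region (chr8:22623676-22623970), whose summit lay 193 bp from the transcription start. It was 5.36 and 6.24 at the Rsu1 region (chr2:13264979-13265245) and 4.88 and 3.9 at the Itpk1 region (chr12:102652471-102652836). All 3 were therefore modest peaks, with no peak of another library within 5.62 kb.

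Most of the regions looked different. The next 8 sequences are the strongest region at each of the 6 nearby genes whose RNA differed between genotypes (described further on), followed by the pair of regions with the highest fold enrichment. Here the capitals mark words of TCF/LEF, SOX (AACAATG or AACAAAG), ETS (CGGAAGT or AGGAAGT or AGGAAAT or CGGAAAT) and AP-1 (TGANTCA) on either strand, the families of the factors most often linked to Wnt signaling, EC identity and cell activation.
Rgs1 region (GRCm38 chr1:144330425-144330625, plus strand): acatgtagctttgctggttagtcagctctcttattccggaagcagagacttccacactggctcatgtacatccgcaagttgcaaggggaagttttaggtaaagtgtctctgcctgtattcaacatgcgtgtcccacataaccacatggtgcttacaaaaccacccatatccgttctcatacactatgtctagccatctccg
Tlr13 region (GRCm38 chrX:106047363-106047563, plus strand): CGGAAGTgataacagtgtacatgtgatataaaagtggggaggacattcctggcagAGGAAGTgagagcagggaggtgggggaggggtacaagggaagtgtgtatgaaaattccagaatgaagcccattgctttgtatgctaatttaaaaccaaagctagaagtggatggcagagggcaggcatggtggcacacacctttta
Csf2rb2 region (GRCm38 chr15:78313931-78314131, plus strand): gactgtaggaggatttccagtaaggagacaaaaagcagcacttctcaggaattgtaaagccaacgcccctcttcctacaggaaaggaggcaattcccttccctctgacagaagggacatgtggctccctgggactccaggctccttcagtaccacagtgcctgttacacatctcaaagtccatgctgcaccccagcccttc
Slc52a3 region (GRCm38 chr2:152015922-152016122, plus strand): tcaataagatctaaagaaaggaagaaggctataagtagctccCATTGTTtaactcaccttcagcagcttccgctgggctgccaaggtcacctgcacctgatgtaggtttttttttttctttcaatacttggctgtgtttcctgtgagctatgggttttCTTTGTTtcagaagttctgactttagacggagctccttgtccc
Pcp4l1 region (GRCm38 chr1:171085558-171085758, plus strand): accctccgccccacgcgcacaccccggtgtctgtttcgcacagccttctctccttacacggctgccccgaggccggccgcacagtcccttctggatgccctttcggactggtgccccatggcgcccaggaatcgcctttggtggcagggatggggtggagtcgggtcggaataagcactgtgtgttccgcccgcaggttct
Fzd6 region (GRCm38 chr15:39078635-39078835, plus strand): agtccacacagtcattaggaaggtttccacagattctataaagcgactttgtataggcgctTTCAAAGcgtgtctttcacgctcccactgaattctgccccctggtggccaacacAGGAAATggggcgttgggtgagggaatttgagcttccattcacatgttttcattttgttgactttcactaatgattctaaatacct
Highest region, between genes near Plk2 (GRCm38 chr13:110492737-110492937, plus strand): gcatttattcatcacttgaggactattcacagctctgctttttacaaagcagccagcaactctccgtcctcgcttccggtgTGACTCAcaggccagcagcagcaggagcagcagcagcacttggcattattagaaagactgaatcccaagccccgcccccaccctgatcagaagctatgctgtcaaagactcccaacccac
Second highest region, between genes near Ufl1 (GRCm38 chr4:25410586-25410786, plus strand): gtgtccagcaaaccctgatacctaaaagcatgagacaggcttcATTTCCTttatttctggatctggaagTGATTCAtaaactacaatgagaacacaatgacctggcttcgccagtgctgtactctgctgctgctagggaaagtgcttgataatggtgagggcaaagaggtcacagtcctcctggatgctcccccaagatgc

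Among these 8 windows, the Fzd6 window alone held a TCF/LEF word, TTCAAAG at positions 62 to 68, together with an ETS word. The Slc52a3 window held 2 SOX words and the Tlr13 window 2 ETS words. The highest region held an AP-1 word and the second highest an ETS and an AP-1 word, while the Rgs1, Csf2rb2 and Pcp4l1 windows held none of the 4 families.

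The regions were weak peaks, as were those of the other sets restricted to a single group. The median fold enrichment of the 528 regions was 4.15 in replicate 1 (range 2.06 to 10.5) and 4.42 in replicate 2 (range 2.04 to 12.1), against medians of 7.98 and 9.05 for the other 34619 regions of the stabilized anterior pituitary. The members' medians stood at the 17.3 and 17.7 percentiles of all regions of the respective library. By the highest fold enrichment of any library, the median was 4.68 for the 528 regions, 4.05 for the stabilized posterior pituitary alone, 4.14 for the stabilized cerebellum alone, 4.37 for the WT anterior pituitary alone and 8.27 for the regions new in both lobes. Only 65 of the 528 regions exceeded a fold enrichment of 5 in both replicates, and 11 exceeded 7. Across the 528 regions the log2 fold enrichment of the 2 replicates correlated with a Pearson r of 0.595, against 0.935 across the other regions of the same libraries, and the thresholds on both axes shape both values. The regions had a median width of 331 bp (range 200 to 938) and a median −log10 q of 5.74 and 6.51, and 61 had a −log10 q under 3 in at least 1 replicate. The peak lists hold no read counts, so the sequencing depth behind each value is unknown.

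**Figure D1:**
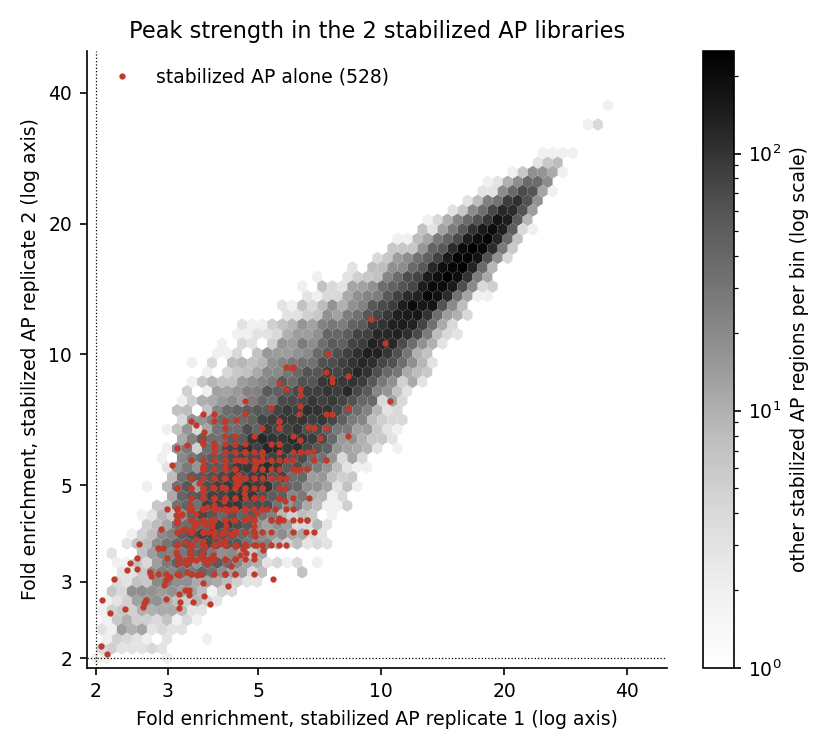
Fold enrichment over background in stabilized anterior pituitary (AP) replicate 1 (x axis) and replicate 2 (y axis), both on log axes, for the 528 regions of stabilized AP alone (red points) and for the other 34619 stabilized AP regions (grey bins, shaded by number of regions on a log scale); dotted lines mark the threshold of 2. The red points sit at the lower left, with medians of 4.15 and 4.42.

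The strongest region, chr13:110492606-110493110, had a fold enrichment of 10.2 and 10.7 and lay between genes, 97.8 kb from the start of Plk2, which encodes a polo-like kinase. The next, chr4:25410057-25410985, had 9.43 and 12.1 and lay 129 kb from the start of Ufl1, an E3 ligase of the ubiquitin-like modifier UFM1. The other 8 of the 10 strongest regions lay nearest to Arhgap18, Tex13c2, Fam196a, 4930555G01Rik, Id2, Mapkapk3, Uaca and Serp2, and the lower of their 2 fold enrichments ran from 7.28 to 8.29. Of these 10 regions, 7 lay between genes and 3 in introns, none lay at a transcription start, and 3 held a single TCF/LEF motif. No peak of any other library lay within 1.82 kb of any of the 10.

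None of the 10 nearest genes was called in RNA (edgeR quasi-likelihood test, at least 2-fold with an adjusted p below 0.05). Plk2 measured 277 and 356 TPM (an RNA level scaled for transcript length and library size) in WT libraries, against 169 and 170 in stabilized anterior pituitary ECs, a log2 fold change of -0.84 ± 0.33 (SE, adjusted p = 0.607). Id2, an inhibitor of basic helix-loop-helix factors, measured 11.1 and 14.4 against 21.6 and 24.9 TPM, a log2 fold change of 1.05 ± 0.42 (adjusted p = 0.636). The WT and stabilized libraries did not overlap for either gene, but the differences did not pass the test. Uaca, which encodes a coiled-coil protein with ankyrin repeats, measured 44.2 and 73.5 against 59.8 and 44.2 TPM with no separation, although it fell in stabilized posterior pituitary ECs (log2 fold change -1.72, adjusted p = 0.0062). Tex13c2 and 4930555G01Rik were listed at 0 in all of these libraries.

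How the regions came to be alone can be followed through the overlaps. Of the 35147 regions in both stabilized anterior pituitary libraries, 2731 were in neither WT anterior pituitary library. Of these 2731, 2052 (75.1%) were also called in a stabilized posterior pituitary library, 1061 (38.9%) in a stabilized cerebellum library, 777 (28.5%) in a WT cerebellum library and 45 (1.65%) in a WT posterior pituitary library, which left 528 (19.3%). Among regions kept out by a single library, 2 libraries accounted for most: 969 regions were absent from the set only because of a peak in WT anterior pituitary replicate 2, and 791 only because of one in stabilized posterior pituitary replicate 2. Without the first the set would hold 1497 regions and without the second 1319. These were also the libraries with many called regions outside the stabilized anterior pituitary itself (43651 and 36633, against 19299 to 35761 in the other 8).

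Under the threshold, 19 of the 528 regions had a deposited peak in another library, all of them in WT anterior pituitary or stabilized posterior pituitary. The median distance to the next peak of another library was 6.18 kb, and 78 regions had one within 1 kb. Just inside the thresholds lay chr15:72916835-72917150 (−log10 q of 3.1 and 2.01) and chr13:52818133-52818480 (fold enrichment of 2.13 and 2.04), and just outside lay chr11:68344278-68344549 (−log10 q of 1.91 and 3.59). At a stricter fold enrichment over 3 and −log10 q over 5 in all libraries, 481 regions met the rule, and 253 of these 481 overlapped 253 of the 528 members. The stricter thresholds were applied to absence as well as to presence.

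The regions lay away from promoters. Of the 528, 41 (7.77%, Wilson 95% interval 5.78 to 10.4) had their summit within 1 kb of a transcription start, 26 (4.92%) in an exon, 266 (50.4%) in an intron and 195 (36.9%) between genes. The share at transcription starts was 39.0% in the other stabilized anterior pituitary regions and 25.7% in all merged regions. It was close to that of the other sets restricted to few libraries, at 8.11% for the 937 regions new in both stabilized pituitary lobes (in all 4 stabilized and none of the 4 WT pituitary libraries), 8.81% for the 159 regions of the stabilized posterior pituitary alone, 9.12% for the 1732 of the stabilized cerebellum alone and 12.0% for the 1105 of the WT anterior pituitary alone. A low promoter share was thus not particular to the 528 regions. The median distance to the nearest protein-coding start was 27.6 kb, and 102 regions (19.3%) lay over 100 kb away. The regions were scattered, with 66 within 100 kb of another member and 13 within 10 kb.

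**Figure D2:**
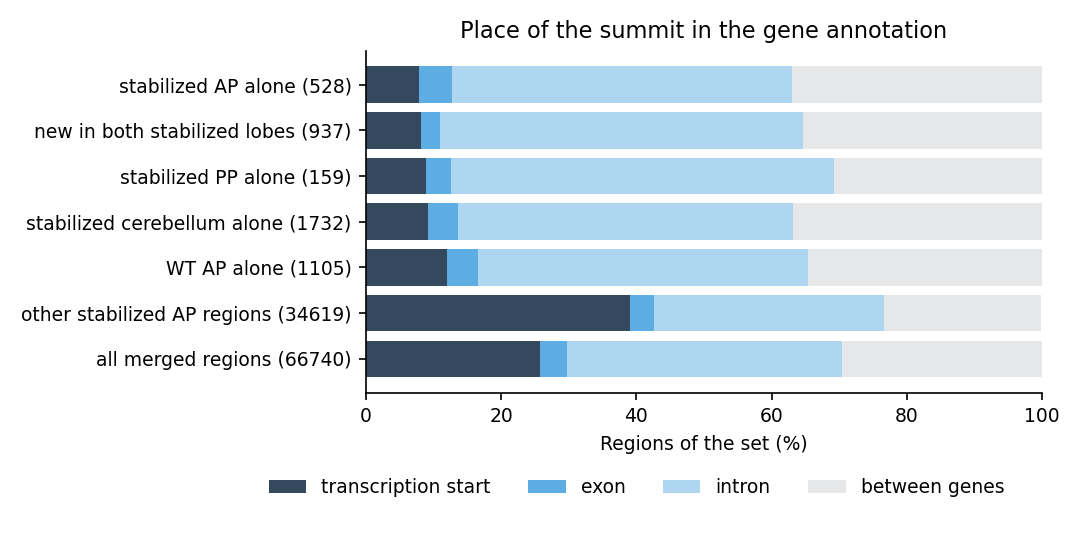
Share of regions (x axis, in percent) whose summit lay within 1 kb of a transcription start, in an exon, in an intron or between genes, for each set of regions (rows, with the number of regions; AP, anterior pituitary; PP, posterior pituitary). The 528 regions of stabilized AP alone have 7.77% at transcription starts, near the other restricted sets and far below the 39.0% of the other stabilized AP regions.

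Among the members at the start of a protein-coding gene (26 regions) were those of Wnt4 and Wnt6, which encode Wnt ligands, Dkk4, Notch3, a Notch receptor of mural cells, Tlr5, a receptor for bacterial flagellin, and Hoxa5. These genes were picked out after the list was seen. Wnt6 and Hoxa5 were listed at 0 in WT and stabilized anterior pituitary ECs, and 14 of the 26 genes passed the filter on low counts, 7 of them with 0 counts in a whole anterior pituitary group. Dkk4 had 0 counts in both WT libraries and 4 and 10 in the stabilized libraries, at least 5.94-fold higher against a floor of 3 counts over the WT group, and the difference did not pass the test (adjusted p = 0.698). Notch3 measured 0.421 and 0.636 TPM in WT against 1.16 and 1.09 in stabilized anterior pituitary ECs, a log2 fold change of 1.13 ± 0.35 (adjusted p = 0.351). The 2 stabilized libraries lay above the 2 WT libraries for Notch3 and Dkk4, by amounts that the test did not call. Notch3 rose in stabilized posterior pituitary ECs (log2 fold change 1.94, adjusted p = 0.0229). In that lobe, where the Dkk4 region was not called, Dkk4 had 0 counts in both WT libraries and 13 and 27 in the stabilized libraries. That difference did not pass the edgeR test either (adjusted p = 0.408).

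Nxpe4, a gene of the neurexophilin family with a member 8 bp from its start, measured 0.608 and 0 TPM in WT against 4.48 and 5.16 in stabilized anterior pituitary ECs (log2 fold change 4.46 ± 1.26, adjusted p = 0.269). It was called higher in stabilized posterior pituitary and in stabilized cerebellum ECs, where by the rule no peak past the thresholds overlapped the region. WT posterior pituitary ECs were listed at 0, stabilized ones measured 5.25 and 5.39, and in the cerebellum the values were 0 and 0.00695 against 14.2 and 14.6.

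TCF/LEF motifs were found in a larger share of the 528 regions than of all accessible regions, without regard to base composition, and in a smaller share than of the regions new in both stabilized lobes. A TCF/LEF motif lay within 100 bp of the summit in 77 of the 528 regions (14.6%, interval 11.8 to 17.8). The share was 6.48% in the other stabilized anterior pituitary regions, 7.89% in all merged regions and 4.34% (3.29 to 5.71) in those of the WT anterior pituitary alone. It reached 37.7% (34.6 to 40.8) in the 937 regions new in both stabilized lobes, 19.6% in the stabilized cerebellum alone and 18.2% in the stabilized posterior pituitary alone. The interval of the 528 regions overlapped neither that of the WT anterior pituitary alone nor that of the regions new in both lobes. Of the 528 regions, 64 held 1 motif, 10 held 2 and 3 held 3 or more. The share with at least 2 was 2.46%, near the 2.52% of the stabilized posterior pituitary alone and the 2.48% of the stabilized cerebellum alone. It was 8.32% in the regions new in both lobes, 0.181% in the WT anterior pituitary alone and 0.671% in all merged regions.

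The TCF/LEF words are rich in A and T, and the 528 regions had a median GC content of 48.3%, against 53.2% in all merged regions. Within bands of GC content the share was 24.3% of 37 members under 40% GC (all merged regions 20.2%), 21.4% of 98 from 40 to 45% (14.8%), 16.6% of 181 from 45 to 50% (11.7%), 9.77% of 133 from 50 to 55% (8.31%) and 5.06% of 79 at 55% or over (3.16%). The members' share was the higher one in all 5 bands, and the Wilson intervals overlapped in all 5. Against the WT anterior pituitary alone the members' share was also the higher one in all 5 bands, with no overlap of the intervals from 40 to 45% GC (14.5 to 30.5 against 5.88%, 3.01 to 11.2) and from 50 to 55% (5.8 to 16 against 2.97%, 1.62 to 5.38), and overlap in the other 3. Against the regions new in both stabilized lobes, the members' share was lower in every band with no overlap of the intervals, for example 16.6% (11.9 to 22.7) against 45.1% (39.3 to 51.0) from 45 to 50% GC. By fold enrichment, a value the choice of members used, the share was 10.2% (6.57 to 15.6) of the 176 weakest, 14.2% (9.81 to 20.1) of the 176 in the middle and 19.3% (14.2 to 25.8) of the 176 strongest, and the 3 intervals overlapped, with no test of the difference.

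**Figure D3:**
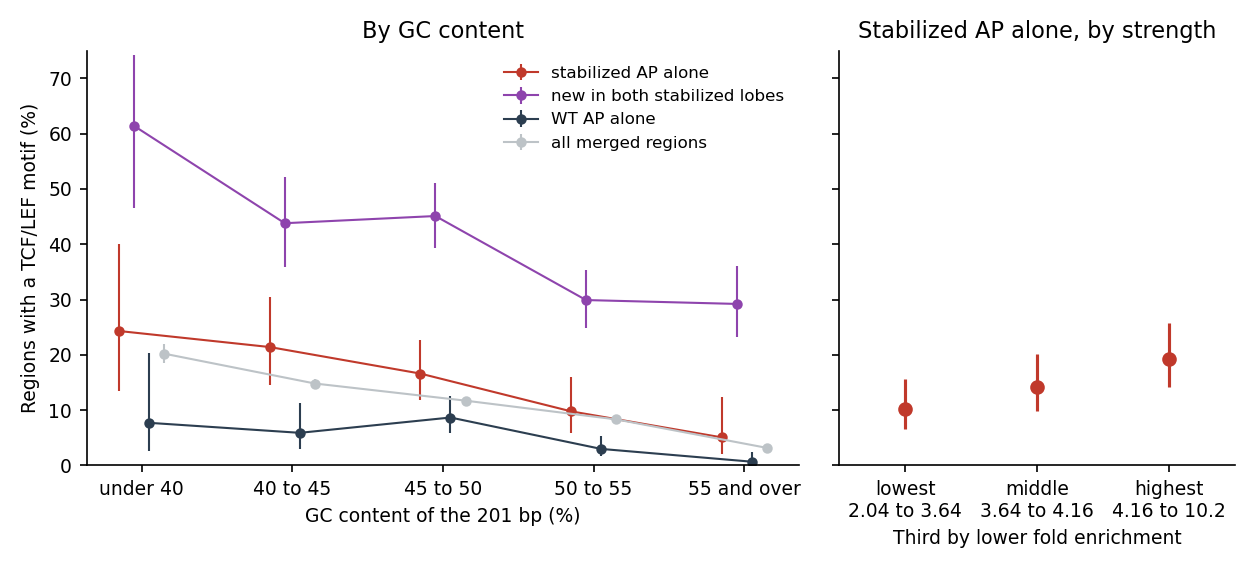
Share of regions with a TCF/LEF motif within 100 bp of the summit (y axis, in percent, with Wilson 95% intervals) by GC content of those bases for 4 sets (left; AP, anterior pituitary) and, for the 528 regions of stabilized AP alone, in 3 classes of 176 regions by the lower fold enrichment of the 2 replicates (right; the range of each class is printed below it). The shares fall with GC content in the 528 regions, from 24.3% to 5.06%, and stay below those of the regions new in both stabilized lobes in every band.

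ETS motifs, bound by the factors that define ECs, were present in 169 of the 528 regions (32.0%, 28.2 to 36.1), close to the 29.5% of the other stabilized anterior pituitary regions and the 29.8% of the WT anterior pituitary alone. SOX motifs were present in 13.1% (10.5 to 16.2), against 8.56% and 7.78% in those sets and 21.1% in the regions new in both lobes. AP-1 motifs were at 12.5% (9.95 to 15.6), against 12.6% in the other stabilized anterior pituitary regions, 6.43% (5.13 to 8.03) in the WT anterior pituitary alone and 14.1% in the regions new in both lobes. Motifs of GATA factors, spelled AGATAA, were at 9.47% (7.26 to 12.3) against 5.44% in the other stabilized anterior pituitary regions, but 10.1% in the WT anterior pituitary alone and 10.6% in the regions new in both lobes. STAT (TTCNNNGAA) motifs were at 9.47% (7.26 to 12.3), against 6.27%, 6.06% and 13.0% in the same sets. Motifs of pituitary factors were infrequent, with PITX (TAATCC) at 5.3% (3.69 to 7.56) against 3.09%, 3.35% and 3.31%, and LHX (TAATTA) at 3.79% (2.47 to 5.78) against 1.65%, 2.35% and 1.71%. FOX (TGTTTAC or TGTTTGC) was at 5.68% (4.01 to 8.0) against 6.36%, 10.1% (8.49 to 12.1) and 9.93% (8.17 to 12.0), with no overlap of the intervals with the latter 2 sets. Lower in the members was also ZIC (CAGCAGG), at 7.2% (5.29 to 9.72) against 10.5%, 13.5% and 11.3%, the last with an overlapping interval. KLF (GGGTGTGG or GGGCGTGG) was at 2.08% (1.17 to 3.69) against 7.02% in the other stabilized anterior pituitary regions, but 3.44% and 3.84% in the restricted sets, whose intervals overlapped that of the members. The SOX, GATA, PITX and LHX words are rich in A and T and the KLF words in G, and these shares were not split by GC content.

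**Figure D4:**
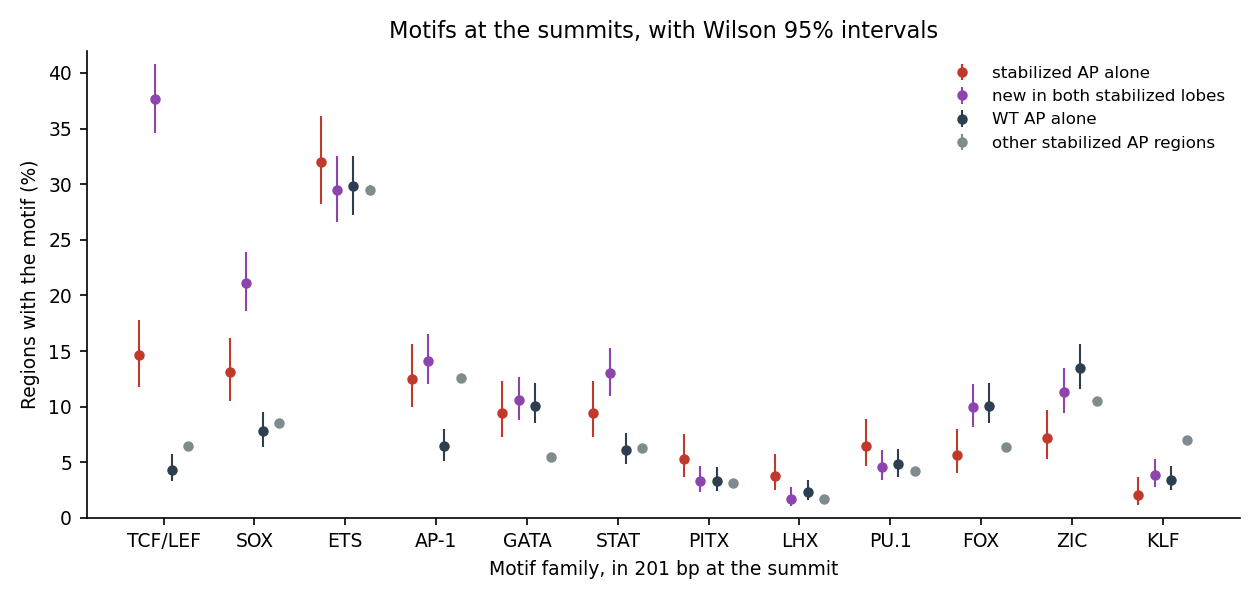
Share of regions with a motif of each family (x axis) within 100 bp of the summit (y axis, in percent), with Wilson 95% intervals, in 4 sets of regions (AP, anterior pituitary). TCF/LEF and SOX separate the 528 regions of stabilized AP alone (14.6% and 13.1%) from the regions new in both stabilized lobes (37.7% and 21.1%), and ETS does not.

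Within 100 kb of the 528 regions lay 2914 annotated genes, and 1290 of them were measured well enough in sorted ECs to be tested. Of the 1290, 6 rose in stabilized anterior pituitary ECs (0.465%) and none fell. Over all 17915 genes tested, 0.441% were called higher and 0.0167% lower, so that genes near the regions were called higher at a share near the background. At an unadjusted p under 0.05 (edgeR), 84 of the 1290 were higher (6.51%, against 5.33% of all genes tested) and 15 lower (1.16%, against 1.66%). DESeq2 called 41 higher and 3 lower, of 499 and 92 over all genes. Without stabilized anterior pituitary replicate 1 the edgeR count of higher genes was 17 and without its replicate 2 it was 12, of 216 and 167 over all genes. The median log2 fold change was 0.108 near the regions and 0.064 over all genes tested (0.122 and 0.103 with genes at 0 counts in a group set at their bound). For the 323 tested genes with the nearest protein-coding start it was 0.201 (0.215 at the bound), and 61.6% of them were above 0 against 52.9% of all genes. By the same measure 38 of the 2235 genes near the regions new in both stabilized lobes (1.7%) were called higher in the anterior pituitary, and 10 of 2477 (0.404%) near those of the WT anterior pituitary alone. The count was 7 of 425 (1.65%) for the stabilized posterior pituitary alone and 44 of 3566 (1.23%) for the stabilized cerebellum alone. These gene sets overlap, and the shares were not compared by a test.

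The same genes were tested in the other ECs. In the posterior pituitary 21 of the 1290 rose (1.63%, against 1.25% of all genes tested) and 6 fell (0.465%, against 0.541%). In the cerebellum 3 rose (0.233%, against 0.067%) and 12 fell (0.93%, against 0.581%). The test of the difference between the lobes, which asks whether a gene near these lobe-restricted regions also responded more in that lobe, called none of the 1290 more raised in the anterior pituitary (background 0.0726%, edgeR; 84 at an unadjusted p under 0.05, or 6.51% against 5.43% of all genes, 27 of 318 calls over all genes by DESeq2, and 28 of 221 by edgeR without WT posterior pituitary replicate 1) and none more raised in the posterior pituitary (background 0.0558%; 45 at an unadjusted p under 0.05, or 3.49% against 3.66%). In GFP-negative cells of the anterior pituitary, none of 1388 nearby genes was called higher (background 0.0357%; 40 at an unadjusted p under 0.05, or 2.88% against 3.63%) or lower (background 0.0051%; 27, or 1.95% against 1.88%). Of the 1515 nearby genes tested between fractions, 130 (8.58%) were higher in GFP-positive than in GFP-negative cells of the stabilized anterior pituitary, against 5.14% of all genes tested, and 43 (2.84%) were lower, against 3.15%, with no test of these shares and no other set of regions compared.

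Of the 6 genes that rose, 3 are expressed mainly by leukocytes. Rgs1, a regulator of G protein signaling in leukocytes, was listed at 0 in both WT anterior pituitary EC libraries and measured 50.5 and 26.8 TPM in the stabilized libraries, at least 1030-fold higher (adjusted p = 0.00599). In GFP-negative cells of the anterior pituitary Rgs1 measured 12.3 and 11.3 TPM in WT against 21.3 and 6.22 in stabilized libraries, which overlap. Tlr13, a receptor for bacterial ribosomal RNA, was listed at 0 and 0 against 2.41 and 1.94 TPM, at least 305-fold higher (adjusted p = 0.0266). Csf2rb2, a subunit of the interleukin-3 receptor, measured 0.00364 and 0 against 1.15 and 5.36 TPM, with 1 count against 703 (ratio 895, exact 95% counting interval 160 to 35400, adjusted p = 0.0433). In GFP-negative cells of the anterior pituitary Csf2rb2 measured 0 and 0.367 TPM in WT and 0 in both stabilized libraries. Tlr13 measured 0 and 0.00983 TPM there in WT against 1.07 and 0.295. Between fractions of the stabilized anterior pituitary, Csf2rb2 was called higher in GFP-positive cells (edgeR, adjusted p = 0.0247). Rgs1 (0.624) and Tlr13 (0.824) were not. Cerebellum ECs held 4.97 and 0.872 TPM of Csf2rb2 in WT against 0.096 and 0.508. The WT and stabilized anterior pituitary EC libraries did not overlap for any of the 3. Rgs1, Tlr13 and Csf2rb2 rose in posterior pituitary ECs as well (adjusted p = 0.00493, 0.0118 and 0.0364), where the regions were not called. Without WT anterior pituitary replicate 1 or 2 the adjusted p was 0.056 or 0.0616 for Tlr13 and 0.0742 or 0.141 for Csf2rb2, and in a fit of only the anterior pituitary groups it was 0.0791 and 0.0906.

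Their regions were between genes for Rgs1 (chr1:144330335-144330694, 81.3 kb from the start, fold enrichment 3.9 and 7.28, with another member also within 100 kb) and for Csf2rb2 (chr15:78313800-78314182, 8.31 kb from the start, 3.87 and 4.95). The Tlr13 region (chrX:106047190-106047601, 4.25 and 4.39) lay 95.6 kb away in an intron of Atp7a. In such bulk samples fewer cells of a type and less RNA per cell cannot be told apart. Markers of microglia and macrophages were also higher in sum. The summed level of the 10 markers was 29.1 and 24 TPM in WT against 200 and 270 in stabilized anterior pituitary ECs, and 10.3 and 1.13 against 298 and 235 in the posterior pituitary, with a median log2 fold change of 4.93 over the 10 in the anterior pituitary. One of the 10 markers, C1qb, passed the test there (0.023 and 0 against 44.3 and 51.3 TPM, adjusted p = 0.0211), and none of the 10 was at 0 in both WT libraries. The markers differed among themselves: C1qa measured 0.263 and 0.0245 against 58.2 and 97.8 TPM (adjusted p = 0.0926), whereas Mrc1 (17.5 and 17.6 against 21.8 and 16) and Cd68 (7.86 and 3.51 against 6.93 and 7.26) overlapped between the groups. In chromatin, the start of 0 of the 10 markers had a peak in either WT anterior pituitary library. The number was 4 of 10 (C1qa, C1qb, Cd68 and Fcer1g) in each stabilized library, and 0 and 6 in the stabilized posterior pituitary replicates. No marker of this list had a member region within 100 kb. These libraries came from cells sorted for Tie2-GFP, a gate meant to keep ECs. In GFP-negative cells of the anterior pituitary the summed level of the 10 markers was 46.9 and 60.6 TPM in WT against 119 and 37.3 in stabilized libraries. The part of microglia and macrophages in the 528 regions, or in the RNA of Rgs1, Tlr13 and Csf2rb2, was not tested.

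A motif of PU.1, an ETS factor of macrophages (GAGGAAGT, which holds the ETS word AGGAAGT, added after the markers were seen), lay in 34 of the 528 regions (6.44%, 4.64 to 8.86), against 4.25% (4.04 to 4.47) in the other stabilized anterior pituitary regions and 4.8% (3.69 to 6.22) in the WT anterior pituitary alone. All 10 endothelial markers had a peak at their start in each of the 12 libraries. Of 16 endocrine markers of the pituitary, 1 and 2 had one in the stabilized anterior pituitary libraries and 2 in each WT library, although their summed RNA was 4680 and 4100 against 6900 and 4420 TPM in the sorted ECs. Mural markers had a peak at 3 and 4 of 8 starts in both genotypes. Their summed RNA was 188 and 223 TPM in WT against 252 and 172 in stabilized anterior pituitary ECs. The median log2 fold change of the 8 was 0.97, and 1 of them, Rgs5, was called higher.

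The other 3 genes have roles outside leukocytes. Slc52a3, a riboflavin transporter, was listed at 0 in both WT libraries and measured 1.32 and 4.05 TPM in stabilized anterior pituitary ECs, at least 210-fold higher (adjusted p = 0.0158). The stabilized libraries held 127 and 369 counts, the larger number in the library with the conflicting label. Without that library, which leaves a single stabilized library, the fitted log2 fold change of Slc52a3 was 9.92. It was 11.7 without the other stabilized library and 11.06 with both. Its levels in posterior pituitary ECs were 0.691 and 5.68 TPM in WT against 2.45 and 1.19 in stabilized libraries, which overlap (log2 fold change 0.51, adjusted p = 0.889), and the difference between the lobes did not pass (adjusted p = 0.0807). In a fit of only the anterior pituitary groups the adjusted p of Slc52a3 was 0.155. Cerebellum ECs, which have a BBB, expressed it in both genotypes (10.1 and 12.5 against 8.81 and 7.72 TPM). Its region, chr2:152015848-152016182, lay between genes, 6.59 kb from the gene, with a fold enrichment of 3.14 and 4.26.

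Fzd6, a Frizzled receptor for Wnt ligands, measured 0.647 and 0.797 TPM in WT against 2.08 and 6.78 in stabilized anterior pituitary ECs, a log2 fold change of 2.31 ± 0.43 (adjusted p = 0.038). In posterior pituitary ECs it measured 15.3 and 15.1 against 8.96 and 7.68 TPM (log2 fold change -0.31, adjusted p = 0.802), and in cerebellum ECs 69.8 and 56.2 against 63.4 and 34.2. The stabilized anterior pituitary libraries were above the WT libraries of the same lobe and below all 4 posterior pituitary libraries, and the difference between the lobes did not pass (2.62, adjusted p = 0.165). Without stabilized anterior pituitary replicate 2, the library with the conflicting tissue label, the log2 fold change of Fzd6 was 1.29 (adjusted p = 0.169), and the call was also lost without WT replicate 1 (0.122) or 2 (0.0859) and in a fit of only the anterior pituitary groups (0.201). Its region (chr15:39078592-39078793, 4.15 and 5.2) lay in an intron of Cthrc1, 40.4 kb from the body of Fzd6, and is the window with a TCF/LEF word printed above.

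Pcp4l1, which encodes a small protein related to a calmodulin regulator of Purkinje cells, measured 6.81 and 0.281 TPM in WT against 81.2 and 129 in stabilized anterior pituitary ECs, a log2 fold change of 5.07 ± 0.96 (adjusted p = 0.0418). Without WT replicate 1 the log2 fold change was 8.89 and without WT replicate 2 it was 4.14. Pcp4l1 also rose in posterior pituitary ECs (13.4 and 6.65 against 124 and 132 TPM, log2 fold change 4.94, adjusted p = 0.0236), and cerebellum ECs held 248 to 486 TPM in both genotypes. The difference between the lobes was 0.13 ± 1.14 (SE, adjusted p = 1). In a fit of only the anterior pituitary groups the adjusted p of Pcp4l1 was 0.201. The region near it (chr1:171085539-171085843, 3.23 and 4.28) lay 87.4 kb away and closer to Fcgr3, a leukocyte Fc receptor gene.

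**Figure D5:**
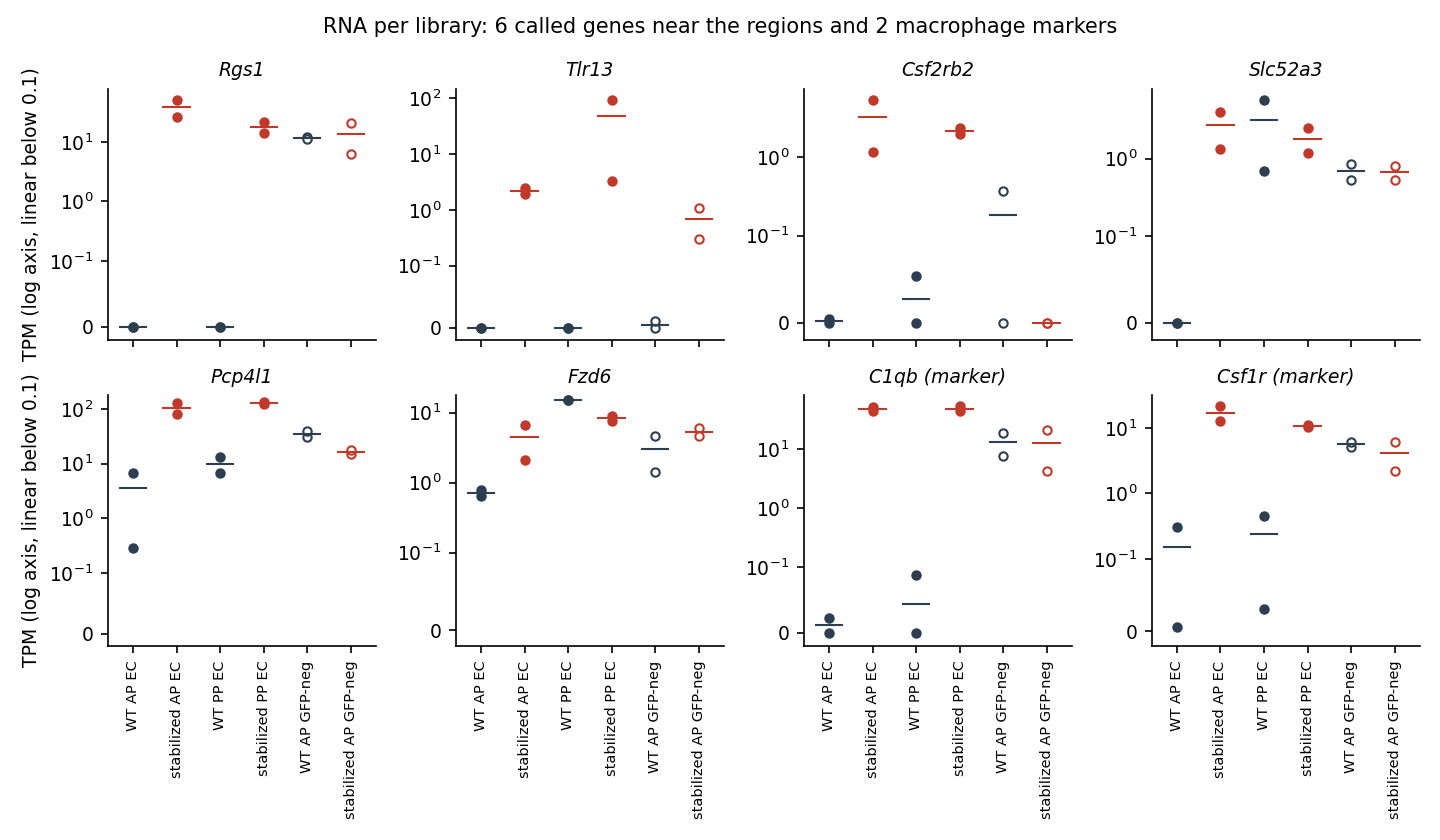
RNA level in TPM (y axis, log above 0.1 and linear below) of the 6 called genes within 100 kb of the regions (stabilized over WT anterior pituitary, AP, ECs), and of the macrophage markers C1qb and Csf1r, in each library (points, 2 per group) with group means (lines); PP, posterior pituitary; GFP-neg, sorted GFP-negative cells, in open symbols. Rgs1, Tlr13, Csf2rb2, Pcp4l1 and C1qb were called higher in both lobes. Slc52a3 and Fzd6 were called in AP ECs, and their difference between the lobes did not pass the test.

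Several genes had more than one member nearby. Ablim1, an actin-binding protein of ECs and other cells, had 5 within 100 kb, Samd13 had 4, and Chd9, a chromatin remodeler, Dnase2b, a lysosomal nuclease, and Uox, which encodes urate oxidase, had 3 each. A further 5 genes had 3, and ties were broken by the distance to the gene. Ablim1 measured 36.4 and 39.6 TPM in WT against 86.0 and 65.4 in stabilized anterior pituitary ECs (log2 fold change 0.69 ± 0.3, adjusted p = 0.686), and Chd9 measured 15.3 and 31.1 against 77.3 and 58.1 TPM (0.72 ± 0.27, adjusted p = 0.572). For both genes the stabilized libraries were above the WT libraries by TPM, and neither passed the test. The fold changes come from counts, which before scaling for depth separated less. They were 7459 and 6027 against 7033 and 9830 for Ablim1, and 3759 and 4044 against 6242 and 4089 for Chd9. Ablim1 was EC-enriched in the stabilized anterior pituitary (log2 4.09 over GFP-negative cells, adjusted p = 6.02e-06). The 3 regions at Dnase2b and Uox are the same ones. The genes overlap on opposite strands, so that unstranded reads from any bases shared by their exons cannot be told apart. Overlap of the exons was not checked. Dnase2b was listed at 0 in WT and measured 3.76 and 4.21 TPM in stabilized anterior pituitary ECs, at least 289-fold higher, which the test did not call (adjusted p = 0.183). It was called by DESeq2 (adjusted p = 2.4e-05). In posterior pituitary ECs, where the 3 regions were not called, Dnase2b was also listed at 0 in WT. It measured 1.34 and 1.36 TPM in the stabilized libraries of that lobe, which edgeR did not call (adjusted p = 0.116).

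Genes of 5 lists were looked up beside the regions. None of 26 Wnt target and feedback genes had a member within 100 kb, although 15 of the 26 had one of the 937 regions new in both stabilized lobes, and 4 of the 26 (Nkd1, Notum, Reck and Tcf7) rose in stabilized anterior pituitary ECs. For scale, 7.2% of all genes tested lay near a member and 12.5% near a region new in both lobes. Of 25 BBB genes, 10 rose in the anterior pituitary, 14 had a region new in both lobes within 100 kb, and 1, Tfrc, had a member. Of 14 genes of fenestrated and permeable ECs, 2 had a member (Cav1 and Nrp1), of 16 arterial and Notch genes 1 (Hey2), and of 15 guidance and matrix genes none.

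Cav1, the main protein of caveolae, measured 68.4 and 24.1 TPM in WT against 46.2 and 66.2 in stabilized anterior pituitary ECs, and its log2 fold change from counts was 1.46 ± 0.29 (adjusted p = 0.0602). DESeq2 called it (adjusted p = 0.000104), as did edgeR with no filter on low counts (0.000182). A fit of only the anterior pituitary groups did not call it (0.182). Fits without 1 library left a single library in a group. The log2 fold change of Cav1 was then 1.83 without stabilized replicate 1 and 1.01 without replicate 2, the library with the conflicting label. Without WT replicate 1 or 2 it was 1.55 or 1.41. The TPM values overlapped between the groups while the counts did not (1892 and 1634 against 3034 and 4485). Nrp1, a co-receptor for VEGF and semaphorins with a member in an intron, measured 160 and 196 against 210 and 166 TPM (log2 fold change 0.07, adjusted p = 1), whereas it fell in posterior pituitary ECs (422 and 357 against 64.2 and 71.0 TPM, log2 fold change -1.72, adjusted p = 0.00448). The difference between the lobes for Nrp1 was 1.8 and did not pass (adjusted p = 0.0861). Tfrc, the transferrin receptor of the BBB, measured 2.63 and 1.15 against 3.65 and 4.46 TPM (log2 fold change 0.62 ± 0.61, adjusted p = 0.91), and Hey2, a Notch target, stayed at or under 0.505 TPM in all 4 libraries. Counts of both overlapped between the groups. Without WT replicate 2 the log2 fold changes were negative (-0.17 for Tfrc and -0.27 for Hey2), and without WT replicate 1 they were 2.63 and 5.09. In posterior pituitary ECs, where its region was not called, Tfrc was called higher (edgeR, log2 fold change 3.03, adjusted p = 0.0395). Its counts there were 212 and 49 in WT against 916 and 701, while its TPM overlapped (10.6 and 1.72 against 10.1 and 3.03). The difference between the lobes for Tfrc did not pass (adjusted p = 0.451). The regions at Cav1, Nrp1, Tfrc and Hey2 had fold enrichments between 3.48 and 7.02.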

How the data were processed

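Peaks came from 12 ATAC-seq libraries (GFP-positive cells) and RNA from 24 sorted libraries, 2 per group; 16 RiboTag libraries were not used. Per the labels and the study's methods, the authors aligned ATAC-seq reads to mm10 with Bowtie2 2.3.2, removed duplicates with Picard and called peaks per library with MACS2 2.1.1.20160309; the deposited peaks hold fold enrichment (a ratio over background) and −log10 q. The authors quantified RNA with Salmon 0.10.2, which gives estimated counts and TPM per transcript, and both were deposited. Here, 130338 of 130740 transcripts were matched to GENCODE M21 genes, estimated counts were summed per gene and rounded, and the 12 libraries of each fraction were fitted with edgeR 4.0.16 (quasi-likelihood, TMM, filterByExpr, one coefficient per group) in R 4.3.3, with Benjamini-Hochberg adjustment over all genes tested. The authors' own tool, EBSeq, was not run. A call needed at least 2-fold and an adjusted p below 0.05. Replicates were biological replicates, and among the libraries used pooling of mice is stated for the pituitary only. The test was also run on simulated counts, whose outcome is not given here and on which no result rests.

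Overlapping peaks (1 bp, without the mitochondrial genome) were merged in Python 3.11.15. Sequence (100 bp on either side of the highest summit) was read from RefSeq GRCm38.p6, and 19 motif families plus 1 added later were searched on both strands. Shares carry Wilson 95% intervals, which cover counting error only. A gene was near a region when its body lay within 100 kb. Named genes were those called near a member, the nearest gene to the 10 strongest members, the 5 genes with most members, and genes of the lists with a member within 100 kb. At least N-fold refers to a floor of 3 counts over the WT group. The members and lists were chosen with earlier results of these data known. Alternatives covered thresholds, overlap, windows, DESeq2 1.42.0, RLE scaling, the low-count filter, a replicate block, and leaving out 1 library at a time (each of the 12 for the number of regions, those of the groups compared for RNA, and the 2 stabilized anterior pituitary libraries for the TCF/LEF share).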

Additional observations from a re-analysis of the deposited data

How the results depend on the processing

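The number of regions was 450 to 533 when absence was judged on every deposited peak, when a margin of 1 kb was required, when the 2 peaks had to overlap by at least 50% of the shorter, or at the stricter thresholds. Leaving out 1 library gave 528 to 1689 regions, with 1689 without stabilized anterior pituitary replicate 1, 1238 without its replicate 2, 1497 without WT anterior pituitary replicate 2 and 1319 without stabilized posterior pituitary replicate 2. The TCF/LEF share was 7.58% within 50 bp of the summit and 25.4% within 200 bp, and the promoter share was 12.5% at 2 kb and 11.2% for the regions of the stricter thresholds.

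Of the counts below, those at 50 kb and for the nearest start come from fewer genes than those within 100 kb, and do not give a share. The 6 nearby genes called higher became 41 with DESeq2 and 33 with no filter on low counts, both including the 6, against 499 and 347 calls over all genes. They became 3 with only the groups compared in the fit, of which 1 was among the 6, 3 at 50 kb, 3 for the nearest start alone, and 6 to 17 without 1 library, the most being without stabilized anterior pituitary replicate 1 (12 without its replicate 2). Genes called lower became 3 with DESeq2, 3 with no filter (of 92 and 96 over all genes), and 0 to 2 without 1 library. Genes called more raised in the anterior than in the posterior pituitary became 27 with DESeq2, 21 with no filter (of 318 and 221) and 0 to 28 without 1 library, the last (of 221) being without WT posterior pituitary replicate 1. Same-numbered replicates did not deviate together (r of -0.0177 to 0.0295), and the replicate block gave 9, 0 and 0 genes for the 3 counts. With the replicate block Cav1 passed the test (adjusted p = 0.0411, against 0.0602). Of the 6 genes, Tlr13, Slc52a3, Csf2rb2, Pcp4l1 and Fzd6 lost their call in the smaller fit. Their fitted log2 fold changes there were 11.67, 11.21, 9.5, 5.07 and 2.32, against 11.52, 11.06, 9.47, 5.07 and 2.31 in the main fit. Without 1 library, the log2 fold change ran from -0.27 to 5.09 for Hey2 and from -0.17 to 2.63 for Tfrc. Both lowest values, now negative, came without WT anterior pituitary replicate 2, and both highest values came without replicate 1 of that group. The causes were not tested. With 2 libraries per group, the calls of Tlr13, Csf2rb2 and Fzd6 were lost without either WT anterior pituitary library.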
